A study of Mus musculus with 54 samples.

Results

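The 10 genes described here belong to the prostaglandin and leukotriene pathway: Ptgs1, Ptgs2, Ptges and Hpgds for prostaglandin synthesis, Ptger2, Ptger3 and Ptger4 for reception of prostaglandin E2, and Alox5, Alox5ap and Ltc4s for leukotriene synthesis. They were taken by gene symbol from 3 count tables that list the same 33280 genes, and all 10 had counts. The tables hold 54 bulk RNA-seq libraries of sorted mouse brain macrophages in 18 groups of 3. Microglia (MG), the macrophages of the brain parenchyma, and subdural CNS-associated macrophages (sdCAMs), which lie at the border of the brain, were sorted from the same mice, from brain devoid of the choroid plexuses. Wild type (WT) mice and mice labelled Ccr2 KO (Ccr2-/-) were each given PBS, LPS after the control treatment (CTL), or LPS after BLZ945. BLZ945 blocks the CSF1 receptor and so depletes these macrophages, and the libraries of BLZ945 mice come from cells harvested 8 weeks after the treatment, when the compartments had been refilled. LPS, the bacterial endotoxin, or PBS was injected intraperitoneally 12 h before harvest. A further set, Ccr2CreERT2/CreERT2:R26tdT/tdT mice, carries the tdTomato reporter under a tamoxifen-induced Cre driven from the Ccr2 locus, so that cells that expressed Ccr2 at the time of tamoxifen, and their progeny, are tdT+. All of these reporter mice had received BLZ945, and their MG, tdT+ sdCAMs and tdT- sdCAMs were sequenced after PBS or LPS. The PBS mice of the WT and Ccr2-/- sets had received neither BLZ945 nor its control treatment, so LPS and the control treatment cannot be told apart in the comparison of CTL + LPS with PBS.

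Libraries held between 1705930 counts, in a WT sdCAM library, and 11330781, in a Ccr2-/- MG library. The libraries of 1 mouse are linked by the labels, and replicates are separate mice. Ccr2 itself stood at 16.7 to 49.9 CPM (counts scaled to a common library size) in WT sdCAMs after PBS and at 2.36 to 5.28 CPM in the Ccr2-/- sdCAMs, but after CTL + LPS the order was reversed, at 0 to 0.715 CPM in WT and 3.12 to 5.49 CPM in Ccr2-/- sdCAMs, so the genotype is used as labelled. Libraries of 2 of the 24 mice, both of the reporter set, did not match each other in sex-linked genes. Both mismatches disappear if the columns of tdT- mouse 1 and tdT+ mouse 7 after LPS are exchanged. Their index numbers in the labels are likewise those of each other's column, and both columns were used by the mouse and population in their names. The titles of the 12 Ccr2-/- libraries after LPS (with CTL or BLZ945) give MG where the cell type label and library name give sdCAMs, and the reverse, and the label and library name were followed. With these, sums of the MG markers were 13459 to 16576 CPM in MG and 1113 to 1943 CPM in sdCAMs of these 12 libraries, and sums of 8 sdCAM markers were 9.01 to 16.8 CPM in MG and 6293 to 8295 CPM in sdCAMs. A panel of 7 MG markers lay, in sdCAM libraries, at a median of 2.63% to 37% of the MG library of the same mouse, except in the tdT+ library of LPS mouse 5, where it lay at 81.3%. The labels mark 6 of the 9 WT sdCAM libraries with an IEG correction that they do not explain, among them all 3 after CTL + LPS and 1 of 3 after BLZ945 + LPS. TMM scaling factors were 0.363 to 0.521 in the CTL + LPS libraries of WT sdCAMs and 0.392 in the marked BLZ945 + LPS library, against 0.862 to 1.20 in WT sdCAMs after PBS, so the mark, the scaling and the LPS group cannot be fully told apart there. As these are bulk libraries, fewer cells of a type and less RNA per cell cannot be told apart.

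Prostaglandin synthesis starts when a phospholipase frees arachidonic acid from membranes and the cyclooxygenases, Ptgs1 (COX1, usually constitutive) and Ptgs2 (COX2, usually inducible), convert it into prostaglandin H2. Terminal synthases then make the individual mediators, among them Ptges, the inducible synthase of prostaglandin E2, and Hpgds, the haematopoietic synthase of prostaglandin D2. Arachidonic acid can instead be taken by Alox5, the 5-lipoxygenase, which works with its activating partner Alox5ap to give leukotriene A4, from which Ltc4s makes leukotriene C4. In the brain, prostaglandin E2 is best known as a mediator of fever and sickness behaviour, and macrophages are among its sources and its targets.

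To place the 2 cyclooxygenases, the inducible synthase and a receptor that rose in both cell types side by side, the 200 bases before the RefSeq start of each are given here (RefSeq, GRCm38.p6). Capitals mark matches to 2 motifs, GAGGAA, the core bound by the macrophage factor PU.1, and TTNNGNAA, the core bound by C/EBP factors, each read on both strands.
Ptgs1 promoter, chr2:36230226-36230425, plus strand: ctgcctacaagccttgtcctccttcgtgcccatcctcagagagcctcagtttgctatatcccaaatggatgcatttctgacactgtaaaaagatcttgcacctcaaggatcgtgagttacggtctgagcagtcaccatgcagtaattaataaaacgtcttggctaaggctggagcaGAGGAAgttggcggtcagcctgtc
Ptgs2 promoter, chr1:150099831-150100030, plus strand: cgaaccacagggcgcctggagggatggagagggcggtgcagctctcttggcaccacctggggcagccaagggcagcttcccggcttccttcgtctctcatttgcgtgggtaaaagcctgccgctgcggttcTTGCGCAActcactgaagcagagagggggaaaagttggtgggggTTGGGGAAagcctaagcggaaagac
Ptges promoter, chr2:30903298-30903497, minus strand: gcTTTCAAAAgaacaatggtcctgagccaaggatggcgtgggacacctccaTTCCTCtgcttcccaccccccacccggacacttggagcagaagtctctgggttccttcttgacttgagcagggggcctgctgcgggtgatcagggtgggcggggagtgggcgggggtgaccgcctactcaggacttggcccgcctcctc
Ptger4 promoter, chr15:5244188-5244387, minus strand: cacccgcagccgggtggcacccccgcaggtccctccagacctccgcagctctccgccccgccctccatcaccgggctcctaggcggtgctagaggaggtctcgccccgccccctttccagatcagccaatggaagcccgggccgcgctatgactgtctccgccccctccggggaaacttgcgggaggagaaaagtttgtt
Over the 250 bases before the start, which 9 of the 10 genes could be matched to, GAGGAA occurred in 5 of 9 (Ptgs1, Ptgs2, Ptges, Hpgds and Alox5) and in 23.3% of all 32851 RefSeq promoters of that length. TTNNGNAA occurred in 4 of 9 (Ptgs2, Ptges, Hpgds and Ptger2) and in 36.8% of all. The Ptgs2 match from 69 to 62 bases before the start reads as TTNNGNAA on both strands. TATAAA (12.4% of all), TGACG (17.8%) and the NF-kappaB consensus (7.25%) had no match in the 9 windows. A match describes letters only, and the absence of a match says nothing about the factor.

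Per kilobase of exon, Ptgs1, Ltc4s, Alox5ap and Hpgds had the highest means of the 10 genes after PBS, in MG and sdCAMs of WT and Ccr2-/- mice. In MG of PBS-injected Ccr2-/- mice, Ptgs1 stood at 361 ± 16.2 CPM per kilobase (mean ± SD, n = 3 mice), above Ltc4s at 144 ± 8.49, Alox5ap at 118 ± 2.26, Hpgds at 83.2 ± 6.23 and Alox5 at 11.2 ± 3.45. Ptgs1 was likewise the highest of the 10 in WT MG after PBS, at 294 ± 20.4 CPM per kilobase. In WT sdCAMs after PBS, Ltc4s had the highest mean with a wide spread, at 513 ± 472 CPM per kilobase. In Ccr2-/- sdCAMs after PBS the order was Ltc4s at 146 ± 6.11, Alox5ap at 101 ± 10.1, Ptgs1 at 88.5 ± 4.48, Hpgds at 82.0 ± 4.47 and Alox5 at 34.2 ± 2.27 CPM per kilobase, and the ranges of mean ± SD overlapped between Alox5ap and Ptgs1 and between Ptgs1 and Hpgds. Ptgs2, Ptges and Ptger2 were each at a mean of at most 0.111 CPM per kilobase in both cell types of both genotypes after PBS. After CTL + LPS the order in Ccr2-/- sdCAMs had changed to Alox5ap at 81.2 ± 2.00, Ptges at 59.4 ± 13.2, Ptgs1 at 24.8 ± 4.16, Ptger4 at 14.8 ± 1.47 and Hpgds at 12.9 ± 1.27 CPM per kilobase, with Ltc4s down to 3.85 ± 0.938. Ptgs2 was at 3.38 ± 2.06 CPM per kilobase there, below the 59.4 of Ptges. All levels that follow are CPM scaled by TMM factors, without the division by length.

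**Figure D1:**
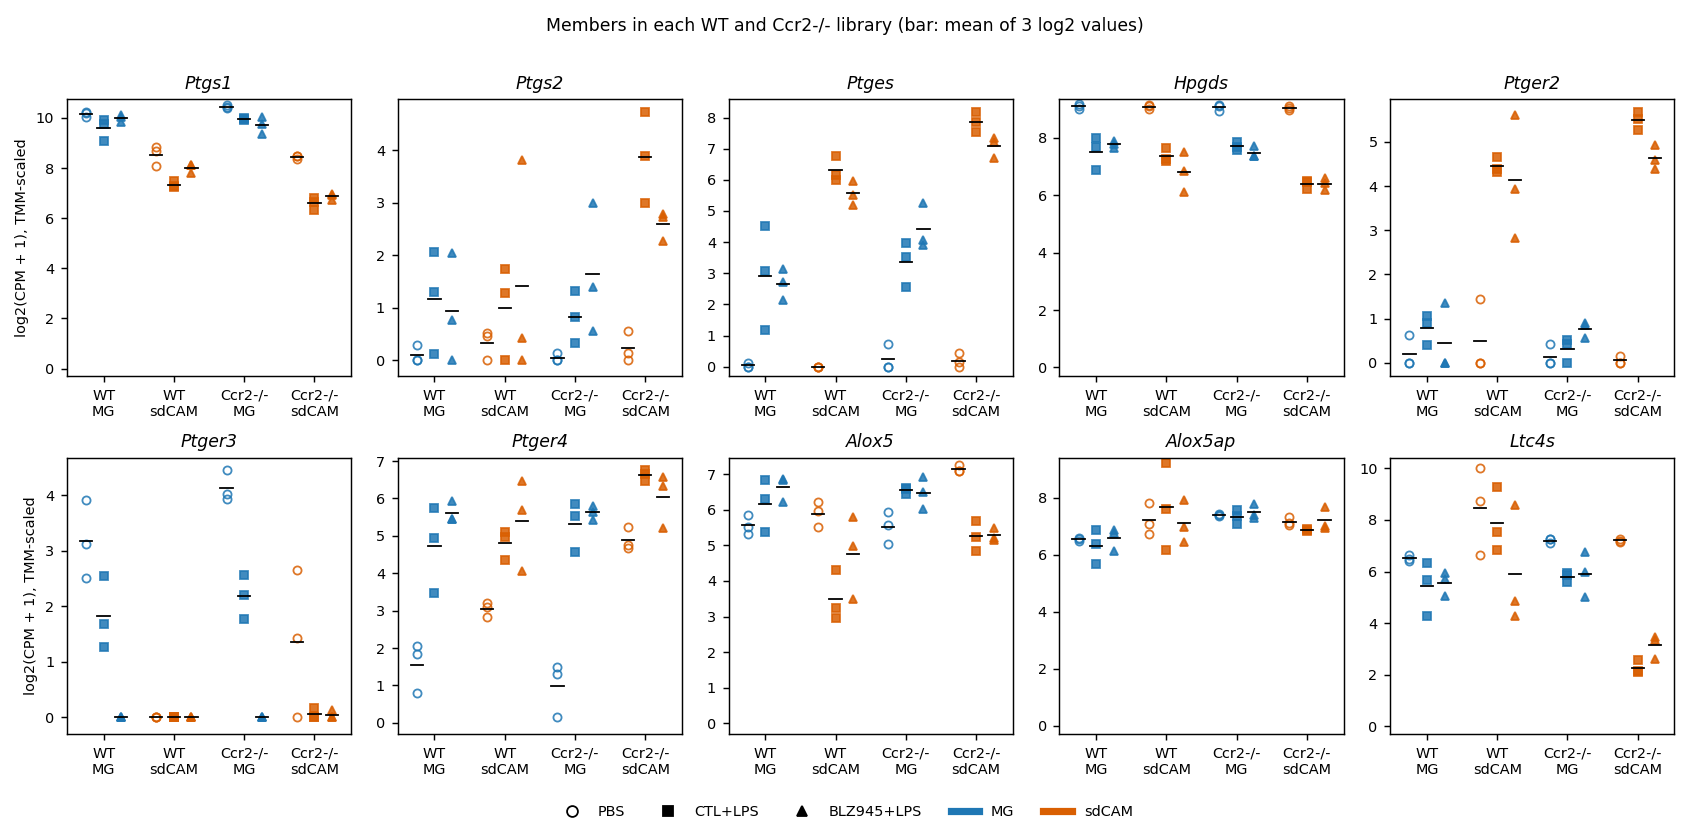
Level of each of the 10 genes in every WT and Ccr2-/- library, as log2(CPM + 1), with MG and sdCAMs in PBS, CTL + LPS and BLZ945 + LPS groups. Points are libraries and bars the mean of the 3 log2 values. After CTL + LPS Ptges and Ptger4 lie higher in both cell types and Ptger2 in sdCAMs, Hpgds lies lower, and Ptgs1 lower in sdCAMs than in MG in every condition.

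The response to LPS was read in 6 comparisons of CPM between injected groups, where a call needs both an adjusted p below 0.05 and a change of more than 1 log2 unit. In WT MG, 2 members rose and 1 fell among 10 tested, where 16.7% of all genes were called, and the median log2 fold change was 0.32 for the members and 0.02 for all genes. In WT sdCAMs, 2 of 8 tested rose and none fell (6.32% of all genes called), with medians of 0.21 and -0.08. In Ccr2-/- MG, 4 rose and 3 fell among 9 (19.4% of all genes), with medians of -0.01 and 0.00. In Ccr2-/- sdCAMs, 4 rose and 4 fell among 9 (21.5% of all genes), with medians of -0.31 and -0.05. Among reporter mice, in which LPS followed BLZ945 in every mouse and was compared with PBS after BLZ945, none of the 8 tested was called in MG (1.08% of all genes, and 3 members at an unadjusted p under 0.05), while in sdCAMs of both tdT classes together 3 rose and 3 fell among 10 (28.8% of all genes), with members' medians of -0.54 in MG and -0.10 in sdCAMs against 0.03 and 0.07 for all genes. The 6 LPS and 6 PBS reporter sdCAM libraries come in tdT+ and tdT- pairs from 3 mice each. The test took them as separate replicates, so its p-values and the 28.8% do not allow for the pairs and can be too favourable. With the tdT+ and tdT- counts summed per mouse, 5 of these 6 calls were kept and that of Ptgs2 was lost. Members that are not in the number tested had too few counts for the comparison.

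**Figure D2:**
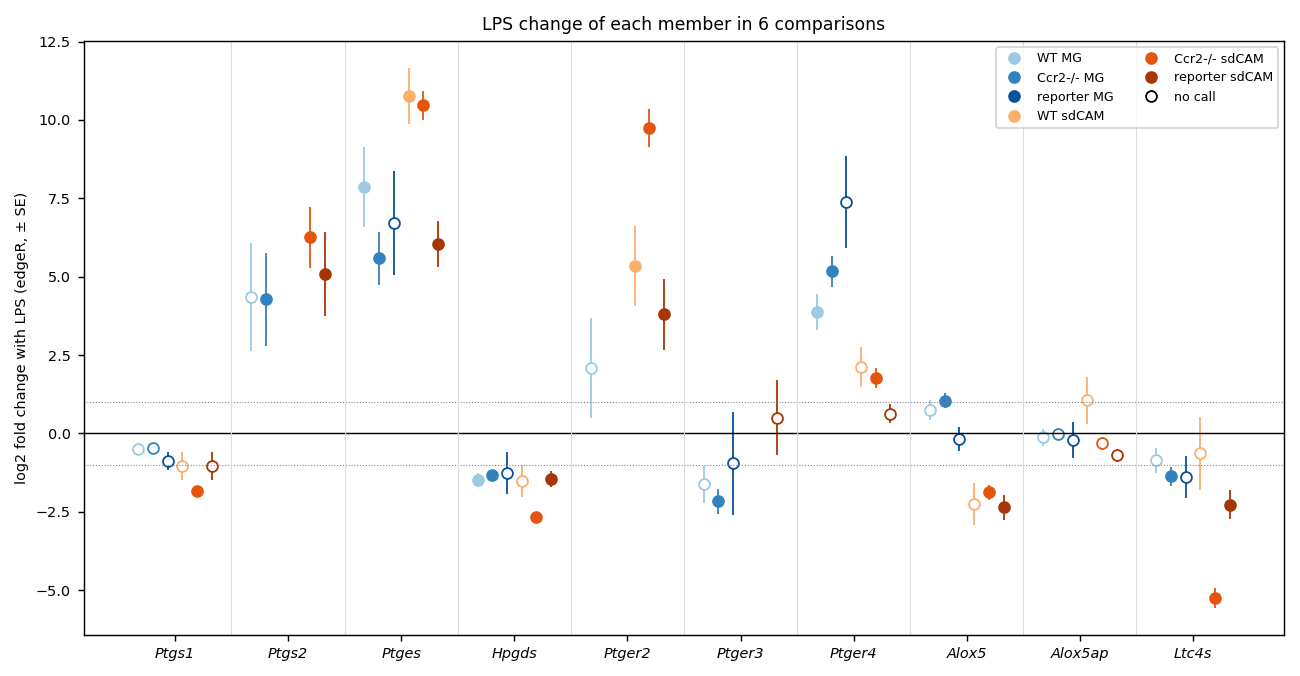
Log2 fold change with LPS for each of the 10 genes in 6 comparisons (WT, Ccr2-/- and reporter, MG and sdCAMs), with bars of 1 standard error, and filled symbols for calls. Ptges lies above 5 in all 6 comparisons, and Hpgds lies below -1 in all 6.

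Ptges, the inducible prostaglandin E2 synthase, rose in 5 of the 6 comparisons. In Ccr2-/- sdCAMs it stood at 0, 0.118 and 0.344 CPM after PBS and at 184, 230 and 287 CPM after CTL + LPS, a log2 fold change of 10.47 ± 0.46 (SE; adjusted p = 1.5e-08, edgeR quasi-likelihood test). In WT sdCAMs it was listed at 0 in the 3 PBS libraries and stood at 62.9, 70.8 and 107 CPM after CTL + LPS, at least 66.2-fold higher when each PBS library is set to the limit that a count of 0 allows, which is 3 counts (adjusted p = 0.00135). The groups lay far apart in both sets. MG showed the same direction at lower levels: in Ccr2-/- MG, 0, 0 and 0.670 CPM after PBS faced 14.6, 4.84 and 10.6 CPM after CTL + LPS (log2 fold change 5.59 ± 0.84, adjusted p = 0.000155). In WT MG the PBS libraries held 1 count of Ptges in all and the CTL + LPS libraries 364, at 21.9, 1.28 and 7.46 CPM, a ratio of 312 with a counting interval of 55.7 to 12374 (95%, exact binomial; adjusted p = 0.000872). WT MG libraries thus spread over more than a factor of 10 after LPS. In reporter MG the levels were 0, 0.732 and 0 CPM after PBS and 25.9, 34.3 and 22.3 CPM after LPS, without overlap, but the change of 6.70 ± 1.66 did not pass the test (adjusted p = 0.108). Reporter sdCAMs rose from at most 1.00 CPM to between 18.2 and 43.6 CPM (6.03 ± 0.73, adjusted p = 1.95e-05).

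Ptges also separated the cell types after LPS. The difference of sdCAMs from MG was 3.09 ± 0.75 in WT after CTL + LPS (adjusted p = 0.00488) and 4.53 ± 0.49 in Ccr2-/- (adjusted p = 1e-06) on the log2 scale, with no overlap in either. After BLZ945 + LPS it was 3.16 ± 0.75 in WT (adjusted p = 0.011, and 0.0542 and 0.0626 without the MG library of mouse 8 or 12) and 2.64 ± 0.45 in Ccr2-/- (adjusted p = 0.000229). In the repopulated reporter mice after LPS the 2 compartments overlapped, at 18.2 to 43.6 CPM in sdCAMs and 22.3 to 34.3 CPM in MG, with a difference of 0.27 ± 0.88 (adjusted p = 0.908). The test of whether the LPS response of Ptges itself differed between sdCAMs and MG did not pass in any set (adjusted p = 0.57 in WT, 0.089 in Ccr2-/- and 0.9 in reporter mice).

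Ptgs2, the inducible cyclooxygenase, remained low throughout, with a maximum of 25.6 CPM and 15 of 54 libraries at 0. It rose in Ccr2-/- sdCAMs from 0.106, 0.472 and 0 CPM after PBS to 25.6, 6.99 and 13.9 CPM after CTL + LPS (6.25 ± 0.97, adjusted p = 0.000379). Reporter sdCAMs rose from between 0 and 1.59 CPM to between 2.48 and 11.5 CPM (5.10 ± 1.34, adjusted p = 0.00856). These groups did not overlap. With the tdT+ and tdT- counts summed per mouse, the reporter call was lost. In Ccr2-/- MG the CTL + LPS libraries stood at 0.775, 0.259 and 1.49 CPM and the PBS libraries held 1 count in all, a ratio of 25.3 with a counting interval of 4.21 to 1033 (adjusted p = 0.0381), and the call was lost in 5 of the 9 fits that left out 1 library. In WT MG, 3.16, 0.0913 and 1.46 CPM after CTL + LPS faced 2 counts after PBS, and the ratio of 24.0 (counting interval 6.35 to 203) did not pass (adjusted p = 0.0761). WT sdCAMs held too few Ptgs2 counts for the test, with 1.43, 0 and 2.33 CPM after CTL + LPS. Of the 8 comparisons between cell types, Ptgs2 differed in 1, Ccr2-/- after CTL + LPS, where sdCAMs exceeded MG by 4.18 ± 1.02 on the log2 scale (adjusted p = 0.00432).

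Ptgs1, the constitutive cyclooxygenase, was the member that separated the cell types in every comparison. WT MG held 1178, 1053 and 1200 CPM after PBS and WT sdCAMs 413, 269 and 457 CPM, a log2 difference of -1.53 ± 0.32 (adjusted p = 0.00432). In Ccr2-/- mice the same comparison set 324, 353 and 355 CPM in sdCAMs against 1475, 1364 and 1368 CPM in MG (-2.03 ± 0.16, adjusted p = 1.68e-08). Across all 8 comparisons the difference ran from -1.53 to -3.37, and sdCAMs lay below MG without overlap in each. The MG marker panel lies in sdCAM libraries at the shares given above, and its part in the Ptgs1 level of sdCAMs was not tested.

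With LPS, Ptgs1 fell in Ccr2-/- sdCAMs, from 324 to 355 CPM down to 99.1, 78.9 and 111 CPM (-1.84 ± 0.17, adjusted p = 5.01e-06). In Ccr2-/- MG the change of -0.46 ± 0.15 passed the p threshold (adjusted p = 0.0332) but not the fold limit, with 982, 971 and 1033 CPM after CTL + LPS. The fall was larger in Ccr2-/- sdCAMs than in MG by 1.34 ± 0.22 on the log2 scale (interaction -1.34, adjusted p = 0.000539). In WT sdCAMs the CTL + LPS libraries, at 156, 151 and 177 CPM, lay below all 3 PBS libraries, and the change of -1.03 ± 0.44 did not pass (adjusted p = 0.176). Reporter sdCAMs spread from 49.5 to 622 CPM after LPS, and the highest value belongs to the tdT+ library of mouse 5, whose MG markers stood at 81.3% of those in its MG library. Without that library Ptgs1 fell in reporter sdCAMs by 1.92 on the log2 scale (adjusted p = 0.000281), and with it the change was -1.04 ± 0.46 (adjusted p = 0.0943). MG marker sums fell with LPS as well, for example in Ccr2-/- MG from between 45976 and 47246 CPM to between 13776 and 15865 CPM.

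Hpgds, the prostaglandin D2 synthase of haematopoietic cells, was at nearly the same level in MG and sdCAMs before LPS. After PBS, WT MG held 580, 558 and 508 CPM, WT sdCAMs 511, 568 and 552 CPM, Ccr2-/- MG 560, 488 and 555 CPM and Ccr2-/- sdCAMs 556, 498 and 527 CPM. These 4 groups overlapped, and the log2 difference of sdCAMs from MG had 1 standard error of 0.36 around 0.06 in WT and of 0.14 around -0.02 in Ccr2-/- mice. LPS lowered Hpgds in 4 of the 6 comparisons. It fell to 117, 256 and 202 CPM in WT MG (-1.49 ± 0.23, adjusted p = 0.000592), to 203, 232 and 188 CPM in Ccr2-/- MG (-1.33 ± 0.15, adjusted p = 1.12e-05) and to 73.5, 88.3 and 86.7 CPM in Ccr2-/- sdCAMs (-2.67 ± 0.17, adjusted p = 1.99e-07). The reporter sdCAMs fell by 1.46 (SE 0.26, adjusted p = 0.000513). In WT sdCAMs, 145, 199 and 154 CPM after CTL + LPS lay below all PBS values, with a change of -1.53 ± 0.51 (adjusted p = 0.0917). The fall in Ccr2-/- sdCAMs was larger than in MG (interaction -1.31 ± 0.20, adjusted p = 0.000305), so that the level after CTL + LPS was lower in sdCAMs by 1.33 ± 0.15 (adjusted p = 1.16e-06) and after BLZ945 + LPS by 1.08 ± 0.15 (adjusted p = 1.66e-05). The latter fell just short of the fold limit without MG of mouse B3m (-0.98) or sdCAMs of mouse B4f (-0.97). In reporter MG the PBS libraries stood at 561, 70.0 and 487 CPM, and without mouse 175, the low library, Hpgds fell by 1.74 (adjusted p = 0.0376), against -1.26 ± 0.68 (adjusted p = 0.499) with it.

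Among receptors of prostaglandin E2, Ptger4 (EP4, coupled to a rise of cyclic AMP) rose in MG of WT and Ccr2-/- mice and in Ccr2-/- sdCAMs. WT MG held 3.15, 0.730 and 2.56 CPM after PBS and 53.1, 10.1 and 29.5 CPM after CTL + LPS (3.87 ± 0.58, adjusted p = 0.000522). Ccr2-/- MG held 1.83, 1.48 and 0.112 CPM and then 45.3, 22.9 and 56.9 CPM (5.17 ± 0.49, adjusted p = 3.3e-06). Neither pair of groups overlapped. In sdCAMs the gene was already present before LPS: Ccr2-/- sdCAMs rose from 24.6, 26.0 and 36.5 CPM to 88.3, 108 and 99.4 CPM (1.76 ± 0.32, adjusted p = 0.00125), and WT sdCAMs went from 6.09, 7.57 and 8.22 CPM to 19.3, 33.2 and 30.6 CPM, a change of 2.11 ± 0.64 that did not pass (adjusted p = 0.0719). The response of Ccr2-/- sdCAMs was smaller than that of MG by 3.38 ± 0.63 on the log2 scale (interaction -3.38, adjusted p = 0.00175). In reporter mice the interaction was -6.69 ± 0.94 (adjusted p = 0.000802), where tdT+ sdCAMs held 39.5, 67.5 and 66.3 CPM and tdT- sdCAMs 25.8, 34.6 and 40.2 CPM after PBS while MG held 0.674, 0 and 0 CPM. The level after PBS was accordingly higher in sdCAMs than in MG, by 4.62 ± 0.51 in Ccr2-/- mice (adjusted p = 1.25e-06) and by 7.40 ± 0.87 in reporter mice (adjusted p = 1.03e-05). In WT mice the same difference was 1.82 ± 0.67 (adjusted p = 0.0674). After CTL + LPS it was 1.24 ± 0.39 in Ccr2-/- mice (adjusted p = 0.0254) and -0.04 ± 0.61 in WT mice (adjusted p = 0.962). The Ccr2-/- call was lost in 4 of 18 fits without 1 library, those without MG of mouse V1m or V2m or sdCAMs of mouse V2m or V4f, with 0.90 (adjusted p = 0.143) at the lowest. The reporter MG rose to 35.2, 41.9 and 47.6 CPM without passing the test (7.38 ± 1.48, adjusted p = 0.0728).

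Ptger2 (EP2, also coupled to cyclic AMP) rose in sdCAMs and stayed at or below 1.57 CPM in all 24 MG libraries. Ccr2-/- sdCAMs held 1 count of Ptger2 in all after PBS and 50.2, 45.2 and 37.6 CPM after CTL + LPS, a ratio of 1178 with a counting interval of 211 to 46565 (adjusted p = 1.88e-07). WT sdCAMs rose from 0, 0 and 1.73 CPM to 18.9, 19.9 and 24.2 CPM (5.35 ± 1.28, adjusted p = 0.0345), a call lost in 5 of the 9 fits without 1 library. Neither pair overlapped. Reporter sdCAMs rose by 3.80 ± 1.14 (adjusted p = 0.0182), to 28.9, 5.64 and 41.1 CPM in tdT+ and 6.20, 3.30 and 3.39 CPM in tdT- libraries, and this call was lost without the tdT+ library of mouse 7 (adjusted p = 0.0652) and when both libraries of uncertain name were left out (adjusted p = 0.0941). After CTL + LPS, sdCAMs exceeded MG by 4.93 ± 1.46 in WT (adjusted p = 0.0141) and by 7.37 ± 0.74 in Ccr2-/- mice (adjusted p = 3.28e-07). After BLZ945 + LPS the differences were 5.52 ± 1.51 (adjusted p = 0.0183) and 5.05 ± 0.65 (adjusted p = 1.03e-05). Both WT calls were unsteady: the one after CTL + LPS was lost without MG of mouse 1 (adjusted p = 0.0611) or 6 (adjusted p = 0.0512), and the one after BLZ945 + LPS in the fit of only the libraries compared (adjusted p = 0.0915) and without sdCAMs of mouse 8 or MG of mouse 11 or 12 (adjusted p of up to 0.0791). The interaction with LPS in Ccr2-/- mice, 8.54 ± 1.92 (adjusted p = 0.00773), rested on MG library 5f after PBS. Without it the PBS MG libraries held no Ptger2 count and the adjusted p was 1.

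Ptger3 (EP3, coupled to a fall of cyclic AMP) was found mainly in MG, where it was lower after LPS and had no count after repopulation in WT and Ccr2-/- mice. Ccr2-/- MG fell from 21.0, 15.2 and 14.3 CPM after PBS to 2.40, 4.93 and 3.60 CPM after CTL + LPS (-2.17 ± 0.41, adjusted p = 0.00144). WT MG went from 14.1, 4.69 and 7.77 CPM to 1.41, 4.84 and 2.23 CPM, with 1 overlapping value and a change that did not pass (-1.62 ± 0.59, adjusted p = 0.0627). After BLZ945 + LPS, Ptger3 had no count in any of the 3 WT and 3 Ccr2-/- MG libraries. Against CTL + LPS, which held 129 counts in Ccr2-/- MG, this is at least 12.0-fold lower (adjusted p = 0.011), and against the 96 counts of WT MG at least 10.7-fold lower (adjusted p = 0.0629), with each library at 0 set to 3 counts. The Ccr2-/- call was lost without BLZ945 mouse B3m (adjusted p = 0.0602) and in the fit of only the libraries compared, and the WT change became a call without CTL mouse 1 (adjusted p = 0.0211). Repopulated MG were not without Ptger3 everywhere: reporter MG, which are also repopulated, held 9.52, 0 and 3.50 CPM after PBS and 2.88, 2.78 and 1.05 CPM after LPS. Those libraries belong to the reporter genotype and to a separate batch in the labels, so genotype and batch cannot be told apart.

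**Figure D3:**
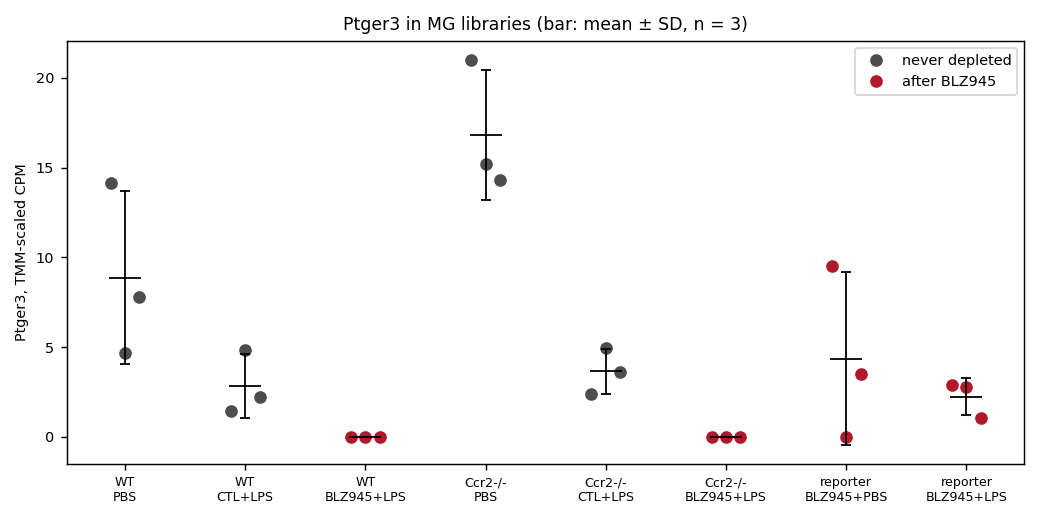
Ptger3 in CPM in each MG library of WT, Ccr2-/- and reporter mice, with the mean and SD of 3 libraries. All 6 WT and Ccr2-/- libraries after BLZ945 + LPS lie at 0, and 5 of the 6 reporter libraries, all after BLZ945, lie above 0.

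In sdCAMs Ptger3 was rare. All 9 WT sdCAM libraries had no count, and WT sdCAMs lay at least 7.31-fold below MG after PBS (adjusted p = 0.0154) and at least 1.61-fold below after CTL + LPS (adjusted p = 0.0245). With the mouse as a replicate block both of these calls were lost (adjusted p = 0.0858 and 0.112), and without 1 library in 2 and 4 of 18 fits (adjusted p of up to 0.0582 and 0.0679). Ccr2-/- sdCAMs held 1.7, 0 and 5.28 CPM after PBS and 1 count in all after CTL + LPS, where MG exceeded sdCAMs by a ratio of 89.7 (counting interval 15.8 to 3572, adjusted p = 0.00396). In reporter mice after PBS the tdT+ sdCAMs held 0, 7.20 and 4.49 CPM (105 counts) and the tdT- sdCAMs 2 counts, a ratio of 57.1 (counting interval 15.4 to 477) that did not pass (adjusted p = 1).

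Of the leukotriene genes, Alox5, the 5-lipoxygenase, changed in opposite directions in the 2 cell types of Ccr2-/- mice. In Ccr2-/- MG it rose from 59.9, 31.6 and 46.4 CPM after PBS to 96.8, 86.5 and 95.3 CPM after CTL + LPS (1.05 ± 0.25, adjusted p = 0.00453), a change that was under the fold limit without PBS mouse 3m (0.84). Ccr2-/- sdCAMs showed a fall from 134, 136 and 151 CPM to 36.7, 50.5 and 27.7 CPM (-1.87 ± 0.24, adjusted p = 8.36e-05). Neither pair of groups overlapped, and the interaction was -2.89 ± 0.36 (adjusted p = 2.99e-05). The order of the cell types was therefore inverted in Ccr2-/- mice, with sdCAMs above MG by 1.61 ± 0.25 after PBS (adjusted p = 9.4e-05) and below by 1.28 ± 0.25 after CTL + LPS (adjusted p = 0.000798). After BLZ945 + LPS sdCAMs were lower by 1.25 ± 0.25 (adjusted p = 0.00111). WT mice gave values in the same directions, 56.3, 44.9 and 38.6 CPM then 40.2, 114 and 77.6 CPM in MG (0.75 ± 0.31, adjusted p = 0.0877) and 73.5, 44.2 and 61 CPM then 6.79, 18.8 and 8.45 CPM in sdCAMs (-2.26 ± 0.67, adjusted p = 0.0656). Neither WT change passed alone, while their difference did (interaction -3.12 ± 0.71, adjusted p = 0.0389), although it was lost in 13 of the 18 fits without 1 library and with the size factors of DESeq2. In reporter sdCAMs Alox5 fell from between 101 and 207 CPM to between 5.89 and 73.0 CPM (-2.36 ± 0.41, adjusted p = 0.000401), and in reporter MG the change was -0.18 ± 0.38 (adjusted p = 0.912), with an interaction of -2.21 ± 0.66 (adjusted p = 0.0889). The highest value after LPS belongs to the tdT+ library of mouse 5, whose MG markers stood at 81.3% of its MG library. The interaction was called without that library or without the tdT- library of mouse 5 (-2.57 to -2.72, edgeR adjusted p of at most 0.035). The difference of reporter sdCAMs from MG after LPS, -1.36 ± 0.44 (edgeR adjusted p = 0.06), was likewise called without either of them.

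In WT mice Alox5 was lower in sdCAMs than in MG after CTL + LPS, by 2.69 ± 0.53 (adjusted p = 0.00128), and after BLZ945 + LPS, by 1.60 ± 0.49 (adjusted p = 0.0318). The latter was lost in 5 of 18 fits without 1 library and with the size factors of DESeq2. After PBS the WT difference was 0.43 ± 0.48 (adjusted p = 0.569).

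Alox5ap, the partner that presents arachidonic acid to the 5-lipoxygenase, was not called in any LPS comparison. In Ccr2-/- MG it stood at 169, 164 and 170 CPM after PBS and 164, 187 and 135 CPM after CTL + LPS, a change of -0.01 ± 0.16. Ccr2-/- sdCAMs went from 132, 159 and 137 CPM to 118, 113 and 115 CPM (-0.31 ± 0.21, adjusted p = 0.306). Reporter sdCAMs passed the p threshold but not the fold limit (-0.70 ± 0.21, adjusted p = 0.0208). WT sdCAMs spread widely after CTL + LPS, at 71.5, 602 and 195 CPM. The single call of this gene, sdCAMs above MG in WT after CTL + LPS by 1.94 ± 0.59 (adjusted p = 0.0156), came with overlapping groups and was lost without sdCAM mouse 4 (0.86, adjusted p = 0.199).

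Ltc4s, the synthase of leukotriene C4, fell with LPS most of all in Ccr2-/- sdCAMs. There it went from 154, 142 and 146 CPM after PBS to 3.27, 3.44 and 5.00 CPM after CTL + LPS (-5.24 ± 0.32, adjusted p = 1.83e-07), and BLZ945 + LPS libraries stood at 5.06, 9.27 and 10.1 CPM. Ccr2-/- MG fell from 151, 136 and 152 CPM to 57.5, 60.7 and 47.7 CPM (-1.37 ± 0.31, adjusted p = 0.0034). Both pairs of groups were apart, and the fall was larger in sdCAMs (interaction -3.84 ± 0.47, adjusted p = 2.44e-05). Before LPS the 2 cell types had been level in Ccr2-/- mice (0.01 ± 0.30), and afterwards sdCAMs were lower by 3.83 ± 0.36 (adjusted p = 1.69e-07), or by 3.03 ± 0.34 after BLZ945 + LPS (adjusted p = 2e-06). Reporter sdCAMs fell from between 116 and 211 CPM to between 2.77 and 63.3 CPM (-2.27 ± 0.45, adjusted p = 0.00129). Their difference from reporter MG after LPS was -1.69 ± 0.56 and did not pass (edgeR adjusted p = 0.0657). It was called without the tdT+ library of LPS mouse 5 or the MG library of PBS mouse 175 (-1.74 to -2.39, edgeR adjusted p of at most 0.0286).

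WT libraries did not show this picture for Ltc4s. WT MG went from 98.4, 85 and 89.6 CPM to 18.3, 79.9 and 50.1 CPM (-0.85 ± 0.39, adjusted p = 0.121). WT sdCAMs held 1040, 421 and 98.6 CPM after PBS, 113, 616 and 185 CPM after CTL + LPS and 18.6, 28.3 and 386 CPM after BLZ945 + LPS, and the change with LPS was -0.64 ± 1.17 (adjusted p = 0.782). sdCAMs exceeded MG after CTL + LPS by 2.77 ± 1.00 (adjusted p = 0.0375), the opposite sign to Ccr2-/- mice, and this call was lost in 4 of 18 fits without 1 library. The marked WT sdCAM libraries stood at 421 to 1040 CPM after PBS, 113 to 616 CPM after CTL + LPS and 386 CPM after BLZ945 + LPS, and those without the mark at 98.6 CPM after PBS and 18.6 to 28.3 CPM after BLZ945 + LPS, so the marked libraries were the higher ones in the 2 groups that hold both kinds, while the 3 CTL + LPS libraries, all marked, also spread widely. With the mark as a covariate Ltc4s was still not called, and the count of calls over the 10 genes in WT sdCAMs with LPS went from 2 to 4, with Hpgds (-1.74, adjusted p = 0.0229) and Ptger4 (2.44, adjusted p = 0.0268) added. The difference between genotypes in the LPS response of Ltc4s in sdCAMs was -4.39 ± 1.33 and did not pass (adjusted p = 0.218), but was called without the marked WT sdCAM library of BLZ945 mouse 12 (-4.59, adjusted p = 0.00247).

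**Figure D4:**
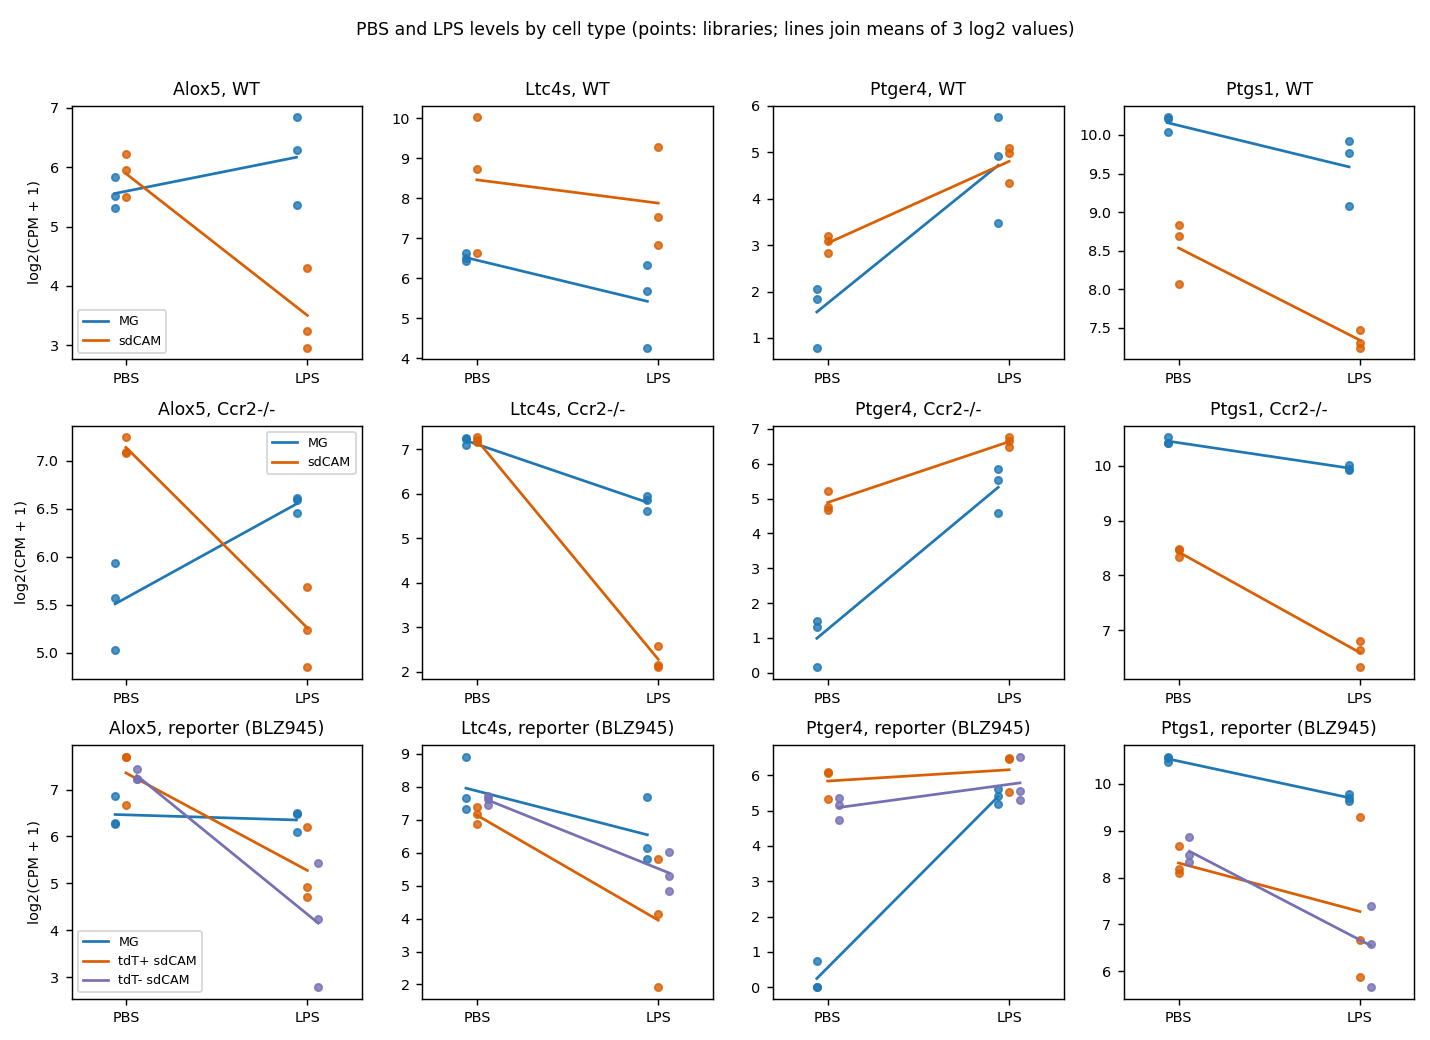
Levels of Alox5, Ltc4s, Ptger4 and Ptgs1 as log2(CPM + 1) in MG and sdCAMs, for WT, Ccr2-/- and reporter mice, before and after LPS. Points are libraries. In Ccr2-/- mice Alox5 moves up in MG and down in sdCAMs, Ltc4s and Ptgs1 fall more in sdCAMs, and Ptger4 rises more in MG.

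All 10 genes entered each comparison of cell types. In WT mice, though, Ptger3 had no count in either cell type after BLZ945 + LPS, and Ptges held 1 count in all after PBS. Neither could be called there, but both stand in the numbers and medians below. In Ccr2-/- mice after BLZ945 + LPS, Ptger3 held at most 1 count in an sdCAM library and 0 in MG, and enters with 1.91. After PBS, Ptgs2, Ptges and Ptger2 held at most 6 counts in any WT or Ccr2-/- library. The medians below therefore rest in part on values near the floor. Counted over the 10 genes, differences of sdCAMs from MG were as follows. In WT mice none was higher and 2 were lower in sdCAMs after PBS (17.1% of all genes called), 4 higher and 3 lower after CTL + LPS (35.4%), and 2 higher and 2 lower after BLZ945 + LPS (17.7%). In Ccr2-/- mice the numbers were 2 higher and 1 lower after PBS (15%), 4 and 5 after CTL + LPS (18.4%) and 2 and 4 after BLZ945 + LPS (15.4%). In reporter mice 1 was higher and 1 lower after PBS (11.1%), and none higher and 1 lower after LPS (8.7%). The median log2 difference of the members was 0.64 in WT and -0.13 in Ccr2-/- mice after PBS, and -0.04 and -0.89 after CTL + LPS, against 0.03, 0.00, -0.12 and -0.06 for all genes. After BLZ945 + LPS it was 0.43 in WT, 0.14 in Ccr2-/- and -0.40 in reporter mice, and after PBS 0.41 in reporter mice, against 0.01, -0.03, 0.00 and 0.09 for all genes. The interaction of cell type and LPS was called for 1 member in WT mice (1.32% of all genes), 6 in Ccr2-/- mice (6.88%) and 1 in reporter mice (2.15%). Scaling by DESeq2's size factors moved the median of all genes by up to 0.25 on the log2 scale, in WT mice after CTL + LPS, and no call of a member changed direction with it.

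For repopulation after BLZ945, the BLZ945 + LPS groups were compared with CTL + LPS groups, which also serve as the LPS groups above. Apart from Ptger3 in MG, none of the members was called: none of 10 tested rose or fell in WT MG (0.0763% of all genes called), none of 8 in WT sdCAMs (0%, with 758 genes at an unadjusted p under 0.05, none of them a member), and none of 9 in Ccr2-/- sdCAMs (0%, with 998 such genes, 3 of them members). In Ccr2-/- MG 1 of 9 was called (0.0173% of all genes). Without Ptger3 the 34 remaining log2 fold changes ran from -1.60 to 1.82, and the smallest adjusted p was 0.356, for Ltc4s in Ccr2-/- sdCAMs. Some groups of 3 libraries did not overlap, in either direction. Such a separation is not a test, and the share of all genes that show it was not counted. Ptges in Ccr2-/- sdCAMs stood at 103, 148 and 162 CPM after BLZ945 + LPS, all below the 184 to 287 CPM after CTL + LPS (-0.76 ± 0.25, adjusted p = 0.494). Ptger2 in the same libraries stood at 19.9, 23.2 and 29.6 CPM, below the 37.6 to 50.2 CPM after CTL + LPS (-0.88 ± 0.33, adjusted p = 0.523). Ltc4s in these libraries lay apart in the other direction (1.06 ± 0.29, adjusted p = 0.356). DESeq2 called no member in sdCAMs either, and in MG it called Ptger3 in both genotypes. In WT sdCAMs, Ltc4s was called without BLZ945 mouse 12 (-3.83, adjusted p = 0.0423). That mouse gave the only marked BLZ945 + LPS library, and without it the IEG mark and the BLZ945 treatment cannot be told apart in this comparison.

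Between tdT+ and tdT- sdCAMs of reporter mice no member was called after PBS (0.0236% of all genes), after LPS (10.6%) or for the interaction with LPS (5.17%). Log2 differences of tdT+ from tdT- ran from -3.36 to 5.51 after PBS (smallest adjusted p = 1) and from -0.82 to 2.52 after LPS (smallest adjusted p = 0.251, for Ptgs1). At an unadjusted p under 0.05 there was 1 member after PBS, Ptger3, and none after LPS or for the interaction, and DESeq2 called none. The errors left room for differences, for example 0.10 ± 0.30 for Alox5ap after PBS and 0.18 ± 1.59 for Ptgs2 after LPS. With the columns of tdT- mouse 1 and tdT+ mouse 7 exchanged, none of the 10 members was called after LPS either (0% of all genes, 1 member at an unadjusted p under 0.05), with differences from -0.73 to 1.76 and a smallest adjusted p of 0.763, and with both left out none was called (6.42% of all genes, 1 member at an unadjusted p under 0.05; smallest adjusted p 0.116). These comparisons leaned on mouse 5. Without its tdT+ library after LPS, Ltc4s was lower in tdT+ sdCAMs (-2.12, adjusted p = 0.0338), and without its tdT- library Alox5 was higher (1.85, adjusted p = 0.0492).

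The LPS response was also compared between genotypes. None of 10 members differed in MG (0% of all genes, with 503 genes at an unadjusted p under 0.05; none of them a member, and DESeq2 called none), and none of 9 in sdCAMs (0%, with 1792 such genes; 2 of them members, with a smallest adjusted p of 0.218 for Ltc4s, which DESeq2 called). A call in 1 genotype and not in the other, as for Ltc4s, Alox5 or Ptgs1, is therefore not shown to be a difference between them. The errors were wide, for example 1.35 ± 0.86 for Ptger4 in MG and 4.26 ± 1.56 for Ptger2 in sdCAMs.

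Sums of marker lists for other cells that use this pathway were also read in sdCAM libraries, where several of the listed genes had no count. Mast cells, a rich source of Hpgds and Ltc4s, were represented by 8 markers, whose sum in Ccr2-/- sdCAMs was 0 to 4.13 CPM after PBS and 19.5 to 23.9 CPM after CTL + LPS, and in the latter Cpa3, Mcpt4, Tpsb2, Cma1, Fcer1a and Ms4a2 were at 0. Sums of 8 neutrophil markers were 106 to 134 CPM and then 342 to 385 CPM in Ccr2-/- sdCAMs, and 107 to 226 CPM and then 411 to 3224 CPM in WT sdCAMs. Ly6g and Retnlg were at 0 in all of these libraries. The other 6, S100a8, S100a9, Camp, Mmp8, Cxcr2 and Csf3r, had counts after CTL + LPS in both genotypes. After PBS Camp was at 0 in both genotypes, and Mmp8 and Cxcr2 were at 0 in WT sdCAMs. MG held this sum too, at 347 to 564 CPM after PBS and 191 to 228 CPM after CTL + LPS in Ccr2-/- mice. In WT MG it was 476 to 669 CPM and then 174 to 397 CPM. Sums of 6 monocyte markers were 2.48 to 5.28 CPM and then 106 to 198 CPM in Ccr2-/- sdCAMs. They overlapped in WT sdCAMs at 28.6 to 51 CPM and then 23.2 to 95.9 CPM. In reporter sdCAMs they were lower after LPS, at 145 to 301 CPM and then 27.3 to 138 CPM. Ccr2, which is 1 of the 6 markers, made up most of the reporter sums after PBS. Alone it stood at 233 to 284 CPM in tdT+ and 144 to 197 CPM in tdT- sdCAMs after PBS. After LPS it stood at 6.62 to 20.6 CPM and 4.23 to 54.3 CPM. In Ccr2-/- sdCAMs after PBS, Ccr2 alone stood at 2.36 to 5.28 CPM. The sums therefore do not follow monocytes alone. Although the labels give the tissue as free of choroid plexuses, the sum of 3 choroid plexus markers was 1790, 467 and 13.1 CPM in WT sdCAMs of CTL + LPS mice 1, 4 and 6, against 1.59 to 144 CPM after PBS and 0.449 to 7.79 CPM after BLZ945 + LPS. Without the sdCAM library of mouse 1, Ptges was still called with LPS in WT sdCAMs (10.92, adjusted p = 0.00528) and Ptger2 was not (5.44, adjusted p = 0.0738). The Ptger2 call was also lost without the sdCAM library of CTL + LPS mouse 4 or 6 or of PBS mouse 9 or 14, so its loss was not particular to mouse 1. In Ccr2-/- sdCAMs the choroid plexus sum was at most 13.9 CPM. The part of these cells in the Ptges, Ptger2, Hpgds, Alox5 and Ltc4s values, and in the comparison of tdT+ with tdT- sdCAMs, was not tested.

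Around these 10 genes, 45 further genes of eicosanoid metabolism were found in the tables, and 11 of them had too few counts for any comparison. With LPS, 3 rose and 7 fell of 28 tested in WT MG, 1 and 5 of 24 in WT sdCAMs, 5 and 8 of 25 in Ccr2-/- MG, 6 and 8 of 28 in Ccr2-/- sdCAMs, none and 1 of 23 in reporter MG, and 2 and 12 of 29 in reporter sdCAMs. Of all genes, 16.7%, 6.32%, 19.4%, 21.5%, 1.08% and 28.8% were called in these comparisons, in the same order. In all, 18 of the 45 genes were called with LPS in at least 1 comparison, 19 between cell types, where 8.7% to 35.4% of all genes were called in a comparison, and none with BLZ945, where at most 0.0763% were. These shares are those of single comparisons. The share of all genes called in at least 1 of the comparisons was not counted, so 18 and 19 of 45 cannot be read as an excess. The most regular was Hpgd, which inactivates prostaglandins by oxidation and was lower in 6 of 6 comparisons. In Ccr2-/- sdCAMs it fell from 1250.2 ± 133 to 24.6 ± 3.11 CPM (SD, n = 3; log2 fold change -5.67 ± 0.42, adjusted p = 8.95e-07, edgeR), and in Ccr2-/- MG from 846 ± 5.73 to 85.7 ± 21.1 CPM (-3.27 ± 0.28, adjusted p = 1.17e-06, edgeR). Tbxas1, the thromboxane synthase, fell in 5 of 6, in Ccr2-/- sdCAMs from 387 ± 7.18 to 38.5 ± 5.21 CPM (-3.33 ± 0.20, adjusted p = 1.46e-07, edgeR). Pla2g15 (a lysosomal phospholipase), Ggt5 (which converts leukotriene C4 onward) and Cysltr1 (a receptor of cysteinyl leukotrienes) also fell in 5 of 6, Cbr1 in 4, Prxl2b and Mgst3 in 3, Ptgr2 in 2, and Cbr3 and Lta4h, the leukotriene A4 hydrolase, in 1. In the opposite direction, Fpr2, a formyl peptide and lipoxin receptor, rose in 5 of 6, in Ccr2-/- sdCAMs from 7.60 ± 1.47 to 581 ± 81.1 CPM (6.26 ± 0.22, adjusted p = 4.51e-09, edgeR), Pla2g7 rose in 3, Ptges2, Dpep2 and Ltb4r1, a leukotriene B4 receptor, in 2, Ptgir, the prostacyclin receptor, in 1, and Cyp4f18 rose in 2 and fell in 1.

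Pla2g4a, the cytosolic phospholipase that supplies arachidonic acid, and Ptges3, a constitutive prostaglandin E synthase, were not called in any comparison of LPS, BLZ945 or cell type. Pla2g4a held 119 ± 8.86 CPM after PBS and 128 ± 16.6 CPM after CTL + LPS in Ccr2-/- MG, with a change of 0.14 ± 0.15. Ptges3 passed the p threshold there without the fold limit (0.74 ± 0.19, adjusted p = 0.00843). Ptgds, Pla2g7 and Fpr2 were higher in sdCAMs than in MG in 8 of 8 comparisons. Ptgds, the lipocalin-type prostaglandin D synthase, stood at 289 ± 38.7 CPM in Ccr2-/- sdCAMs and 6.33 ± 2.26 CPM in MG after PBS (5.52 ± 0.47, adjusted p = 4.32e-08). Markers of other cells were also higher in these sdCAMs. Sums of 6 fibroblast markers were 5.05 to 25.4 CPM in sdCAMs and 0 to 0.782 CPM in MG after PBS. Sums of 5 astrocyte and neuron markers were 32.0 to 45.1 CPM and 12.0 to 15.3 CPM. The part of such cells in the Ptgds level of Ccr2-/- mice was not tested. Pla2g7, the platelet-activating factor acetylhydrolase, stood at 1005 ± 91.6 CPM in sdCAMs and 3.36 ± 0.126 CPM in MG of these mice (log2 difference 8.22 ± 0.22, adjusted p = 6.27e-15). After CTL + LPS in WT mice, Pla2g6, a calcium-independent phospholipase, was lower in sdCAMs than in MG by 2.33 ± 0.80 (adjusted p = 0.0304), Abcc1, an exporter of leukotriene C4, by 1.62 ± 0.39 (adjusted p = 0.00399) and Abcc4, an exporter of prostaglandins, by 3.30 ± 0.75 (adjusted p = 0.00287). Abcc4 was also lower after PBS (-2.27 ± 0.70, adjusted p = 0.0328). Of the 8 comparisons of cell types, Pla2g6 and Abcc1 were called in 1 and Abcc4 in 2. In WT mice after CTL + LPS 35.4% of all genes were called, and the sdCAM libraries there all carried the IEG mark and low TMM factors. Cysltr2, a receptor of cysteinyl leukotrienes, was called higher in WT sdCAMs after CTL + LPS (adjusted p = 0.0252) with overlapping groups, since MG had no count and sdCAMs a mean of 1.85 CPM.

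To describe which genes varied most like 4 of the members, log2(CPM + 1) was correlated over the 54 libraries among 8616 genes that averaged 10 CPM or more. The libraries share cell type, treatment and batch, so these values describe the tables only. Ptgs1 was most like F11r (Pearson r = 0.938), Itgb5 (0.934) and Cd9 (0.932). Ptgs2 was most like Mmp14 (0.808), Gsr (0.801) and Ets2 (0.790), Hpgds like Gpr34 (0.872), Sncaip (0.860) and Hpgd (0.856), and Alox5ap like Myl12b (0.827), Gpx1 (0.808) and Oaz1 (0.801).

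Annotated exons on the opposite strand overlap 5 of the 10 genes: Ptgs1 by 148 bases, Ptger2 by 246 and 144, Ptger4 by 1015 and 82, Alox5ap by 189 and Ltc4s by 268. The strand setting of the counting is not given in the sources used here, so reads of these partners cannot be told apart from those of the members.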

How the data were processed

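Paired libraries were sequenced from MG and sdCAMs sorted from each mouse. The authors deposited raw counts per gene in 3 tables, made, per the submitters' processing notes, with bcl2fastq 2.20, STAR 2.7.11a, featureCounts 2.0.8 and DESeq2 1.46.0. The strand setting is not given in the sources used here, and the genome build is named in more than one way. Groups came from the labels, every column was matched to a sample by its library name (0 unmatched; in 2 reporter columns the index number differs from the labels, and 12 Ccr2-/- titles contradict the cell type label and library name that were used), and 0 pairs of columns were identical. The 10 genes and all lists were chosen with earlier results of these data known.

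Counts were tested across all genes with edgeR 4.0.16 (R 4.3.3): filterByExpr by group, TMM scaling, a quasi-likelihood F-test, two-sided, with Benjamini-Hochberg adjustment over all genes tested in a comparison. A call required an adjusted p below 0.05 and a change of more than 1 log2 unit. The 26 comparisons were fitted per genotype and cell type for LPS and BLZ945, and per genotype over both cell types for sdCAMs against MG. The text names all 10 members, other genes of a fixed list of 46 eicosanoid genes (45 found in the tables) that were called in at least 1 comparison of LPS, BLZ945 or cell type or that carry the path between members, and the 3 genes most like each of 4 members. The scripts were tested on simulated data. Same-mouse deviations of MG and sdCAM libraries correlated at -0.129 to 0.328 over 30 pairs, and the mouse, which the labels name, was used as a replicate block in an alternative. Other alternatives were DESeq2 1.42.0, its size factors, no filter on low counts, no fold limit, fits of only the libraries compared, the IEG mark as a covariate, exchange or omission of the 2 columns in question, sums per mouse, and omission of each library in turn. Use of marked WT sdCAM libraries alone, and omission of the reporter MG of mice 175 (PBS) and 1 (LPS), were added after the data were seen. Libraries carry no molecular identifiers as far as the sources say, so counting intervals and limits for a count of 0 cover counting error only. Exon lengths and overlaps were taken from GENCODE vM21.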

Additional observations from a re-analysis of the deposited data

Results flagged for a closer look

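The following LPS responses differed between sdCAMs and MG by a test of the interaction itself, each given as the log2 response of sdCAMs minus that of MG with its edgeR adjusted p. In Ccr2-/- mice they were Ptgs1 at -1.34 (adjusted p = 0.000539), Hpgds at -1.31 (adjusted p = 0.000305), Ptger4 at -3.38 (adjusted p = 0.00175), Alox5 at -2.89 (adjusted p = 2.99e-05), Ltc4s at -3.84 (adjusted p = 2.44e-05) and Ptger2 at 8.54 (adjusted p = 0.00773). The Ptger2 value rests on PBS MG library 5f, without which MG held no Ptger2 count after PBS. In WT mice the difference was -3.12 for Alox5 (adjusted p = 0.0389), and in reporter mice -6.69 for Ptger4 (adjusted p = 0.000802). The WT Alox5 call was unsteady, lost in 13 of the 18 fits without 1 library and with the size factors of DESeq2. In Ccr2-/- mice the 3 MG libraries after CTL + LPS all lay above, and the 3 sdCAM libraries all below, every PBS library of their cell type for Alox5.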

How the results depend on the processing

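No call of a member changed direction under the alternatives that were run. Of 69 calls, DESeq2 kept 69 and added 16, omission of the low-count filter kept 69 and added 19, and DESeq2's size factors kept 67. Calls with LPS ranged from 18 to 23 around 20 when 1 library was left out in WT and Ccr2-/- mice, and from 5 to 9 around 6 in reporter mice. Differences between cell types ranged from 30 to 36 around 34, and their interaction with LPS from 7 to 9 around 8. The numbers that moved were small ones. Calls with BLZ945 went from 1 to 2 with DESeq2 and without the low-count filter, Ptger3 in WT MG being added, to 0 in fits of only the libraries compared, and from 0 to 2 over omissions of 1 library. The genotype interaction went from 0 to 1 with DESeq2 and without the filter (Ltc4s in sdCAMs in both), and from 0 to 1 over omissions. Calls between tdT+ and tdT- sdCAMs went from 0 to 2 without the filter, both for Ptgs1, and from 0 to 1 over omissions. In reporter mice the LPS calls rose from 6 to 10 without the MG libraries of mice 175 and 1, with Ptges (11.24), Hpgds (-1.52), Ptger4 (6.95) and Ltc4s (-1.52) added in MG. The cause of these shifts was not tested.

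With the mouse as a replicate block, differences between cell types gave 33 calls, their interaction with LPS 9 and tdT+ against tdT- 0. Of 42 calls it kept 40, the lost ones being Ptger3 in WT mice after PBS and after CTL + LPS, and it added Alox5 in reporter mice after LPS and for the interaction. Depth limits the statements on Ptgs2, Ptger2 and Ptger3, which held no count in 15, 18 and 26 of 54 libraries.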
